A study of Mus musculus with 10 samples.

Results

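Minor neuropeptide genes of pancreatic islet cells were followed through sorted delta, alpha and beta cells of the mouse. The set was defined by name as Pdyn, Penk, Cartpt, Nts, Tac1, Cck, Grp, Nmb, Vgf and Nucb2. Of these 10 genes, 9 are rows of the table of 19213 gene entries, and Grp was not analysed here. Of the 9, 8 reached at least 1 RPKM (reads divided by the gene's length in kilobases and by the size of the library) in at least 2 libraries and were tested among 12700 genes, while Penk stayed below that level. Nts and Cck passed this filter through delta and alpha libraries alone and Tac1 through alpha and beta libraries alone, so counts over the tested genes favour a difference for these 3 and are given as a description.

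Delta cells, which secrete somatostatin, gave 2 libraries (1 female, 1 male). Alpha cells, which secrete glucagon, gave 3 libraries (1 female, 2 male), and beta cells, which secrete insulin, gave 5 (3 female, 2 male). All animals were adult triple-transgenic mice with the mIns1-H2b-mCherry reporter, which labels beta cell nuclei, and floxed YFP, which Cre recombination turns on. The Cre was Sst-Cre in the cross used for delta cells and Gcg-cre in the cross used for alpha cells. No library came from mice without transgenes. Each pool held islets from 10 to 12 mice of the same sex, kept overnight in 5.5 mM glucose before the cells were sorted by fluorescence. Delta and alpha libraries come from different crosses, so cross and cell type cannot be told apart between them. The beta libraries may come from both crosses, since 2 of them carry title numbers next to those of delta libraries and 2 next to those of alpha libraries of the same sex. Whether such libraries share a pool of islets is not stated, so p-values describe only how these libraries vary, and that variation may be technical.

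Neuropeptides are cut out of larger precursor proteins inside dense-core granules by prohormone convertases, and are released with the granule content to act on G protein-coupled receptors of nearby cells. Pdyn encodes prodynorphin, the source of the dynorphins, which act on the kappa opioid receptor, and Penk encodes proenkephalin, the source of the enkephalins. Nts encodes neurotensin, Tac1 encodes substance P and neurokinin A, Cck encodes cholecystokinin, Nmb encodes neuromedin B, and Cartpt encodes the cocaine- and amphetamine-regulated transcript peptides. Vgf encodes a granin-like precursor of several peptides, among them TLQP-21, and Nucb2 encodes nucleobindin 2, the precursor of nesfatin-1. In the gut, the adrenal gland and the brain these genes mark particular neuroendocrine cells, and several of them are known in islet cells at levels far below the main hormones.

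The promoters of Pdyn, Cartpt, Nts and Cck are shown because these genes had their highest means in different cell types, Pdyn and Cartpt in beta cells and Nts and Cck in alpha cells. Each line gives the 250 bases before the gene start from RefSeq on GRCm38.p6, read 5′ to 3′ on the minus strand, which is the coding strand of all 4 genes. Capitals mark 2 elements known to bind cAMP- and activity-regulated factors. They are the cAMP response element (CRE, full form TGACGTCA, core TGACG) and the AP-1 site TGANTCA, both searched on either strand. The Pdyn window is chr2:129699939-129700188, that of Cartpt chr13:99900684-99900933, that of Nts chr10:102490419-102490668 and that of Cck chr9:121495695-121495944. The gene start here is that of RefSeq, and the GENCODE coordinates given below place the starts of Pdyn, Cartpt and Nts elsewhere. By those coordinates the Cartpt window lies wholly and the Nts window partly inside the gene.
Pdyn: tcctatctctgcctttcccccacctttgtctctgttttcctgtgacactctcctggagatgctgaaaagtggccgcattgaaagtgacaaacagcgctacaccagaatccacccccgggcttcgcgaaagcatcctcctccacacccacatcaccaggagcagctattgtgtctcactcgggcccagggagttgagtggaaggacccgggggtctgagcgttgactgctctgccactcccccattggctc
Cartpt: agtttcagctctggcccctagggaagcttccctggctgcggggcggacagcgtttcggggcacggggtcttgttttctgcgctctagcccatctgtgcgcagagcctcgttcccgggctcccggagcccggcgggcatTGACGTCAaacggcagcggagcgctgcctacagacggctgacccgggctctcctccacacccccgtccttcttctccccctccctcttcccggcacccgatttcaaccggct
Nts: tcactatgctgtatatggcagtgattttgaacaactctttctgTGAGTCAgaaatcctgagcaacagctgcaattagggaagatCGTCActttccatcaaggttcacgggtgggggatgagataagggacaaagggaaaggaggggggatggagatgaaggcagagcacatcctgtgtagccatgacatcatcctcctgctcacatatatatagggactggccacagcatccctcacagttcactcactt
Cck: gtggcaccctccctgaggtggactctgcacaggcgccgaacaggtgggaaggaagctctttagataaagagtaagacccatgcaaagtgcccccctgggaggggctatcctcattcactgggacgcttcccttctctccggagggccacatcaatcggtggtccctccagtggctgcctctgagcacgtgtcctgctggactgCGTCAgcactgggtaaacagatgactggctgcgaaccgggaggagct
The Cartpt promoter held a full CRE at positions -112 to -105 from the gene start, whose letters contain the core on both strands. Nts held an AP-1 site at -207 to -201, which reads as a match on both strands, and a core on the opposite strand at -166 to -162, printed as CGTCA. Cck held a core on the opposite strand at -47 to -43. Over the 32841 promoter windows of 300 bases in the RefSeq table, 1.79% held the full CRE, 20.8% the core and 7.81% the AP-1 letters. Of the 9 genes, 7 had a promoter in that table. In windows of that length Tac1 held 2 cores on the strand opposite to the gene, at -197 to -193 and -43 to -39, and the windows of Nmb, Nucb2 and Pdyn, which has 2 windows, held none of these letters. The Tac1 window also lies partly inside the gene by GENCODE coordinates. Penk and Vgf are named only.

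The sorts were separated by their hormones, with traces of the others. Sst averaged 56580 RPKM in delta, 1829 in alpha and 422.1 in beta libraries, Gcg averaged 22240, 255200 and 1474 RPKM in the same order, and Ins2 averaged 2561, 1878 and 249600 RPKM. Glucagon transcript in delta libraries was therefore 8.72% of its alpha mean. Library totals were 16688097 to 26684086 reads, and reads of 7 hormone genes took 9.81% to 10.6% of delta, 27.5% to 30.9% of alpha and 17.6% to 31.8% of beta libraries. RPKM are shares of a library. The median log2 fold change of all tested genes was 0.25 for delta minus beta, -0.02 for alpha minus beta and 0.26 for delta minus alpha, against -0.0048, -0.0131 and -0.0134 after median-ratio scaling, a scaling that moves delta values down against the other types. In bulk samples a lower level from fewer expressing cells and one from less RNA per cell cannot be told apart.

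**Figure D1:**
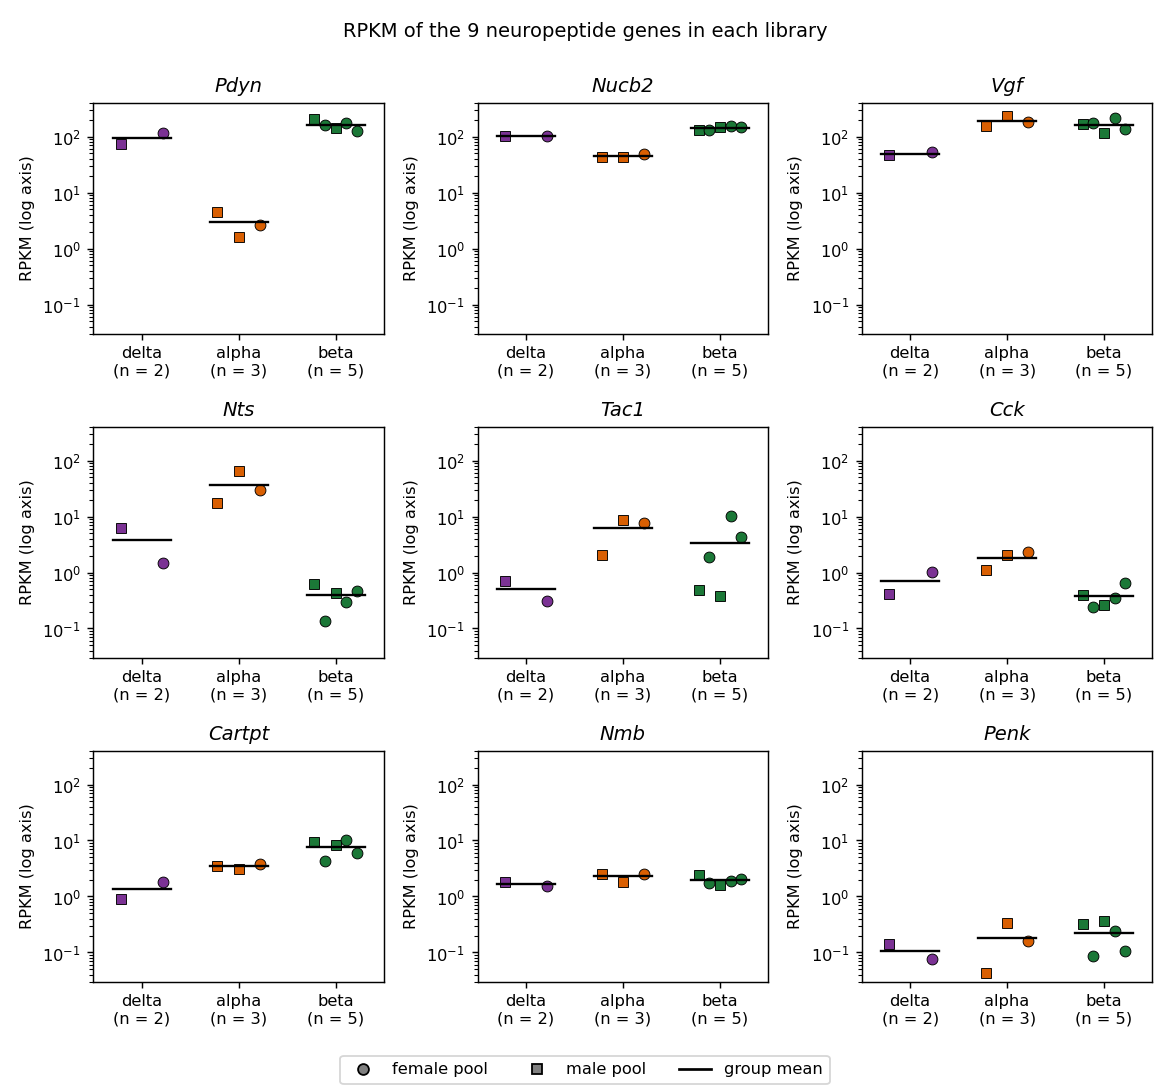
RPKM on a log axis of the 9 neuropeptide genes in each library of delta (n = 2), alpha (n = 3) and beta cells (n = 5); circles are female pools, squares are male pools and lines are group means. Pdyn lies at or below 4.59 RPKM in alpha cells and at 75.1 RPKM or more in the other types, Nts is highest in alpha cells, and Penk stays at or below 0.359 RPKM in all 10 libraries.

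RPKM are levels per length, so the 9 genes can be set side by side. Vgf, Nucb2 and Pdyn had means of 45.3 RPKM or more in each cell type, except Pdyn in alpha cells with 2.94 RPKM. Nts reached 17.5 to 64.5 RPKM in alpha libraries and stayed at or below 6.12 RPKM in the others. Cartpt, Tac1, Nmb and Cck lay between 0.240 and 10.4 RPKM in all 10 libraries, and Penk lay between 0.0424 and 0.359 RPKM. Among the 12700 tested genes ranked by mean RPKM, Vgf was at rank 116 in alpha cells, Pdyn at rank 217 and Nucb2 at rank 270 in beta cells, and Nts at rank 1337 in alpha cells.

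Of the 8 tested genes, delta cells had 1 higher and 4 lower than beta cells, alpha cells had 2 higher and 3 lower than beta cells, and delta cells had 2 higher and 5 lower than alpha cells (limma, adjusted p under 0.05). Over all tested genes 37.4% were called with a positive and 13.3% with a negative delta minus beta value, 50.7% in all. In alpha against beta cells 23.7% were higher and 30.3% lower, 54.0% in all, and in delta against alpha cells 32.1% were higher and 5.89% lower, 38.0% in all. The share of neuropeptide genes called was 62.5%, 62.5% and 87.5% in these contrasts, so the first pair lies near the share of all genes. The median log2 fold change of the 8 genes was -0.63 for delta minus beta, 0.23 for alpha minus beta and -0.86 for delta minus alpha. Both contrasts with beta cells use the same beta libraries. After median-ratio scaling, delta minus beta gave 3072 positive and 3103 negative calls, against 4750 and 1692 as deposited, and delta minus alpha gave 1817 and 1327, against 4076 and 748 as deposited. No call on the 8 neuropeptide genes in these contrasts changed under that scaling.

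**Figure D2:**
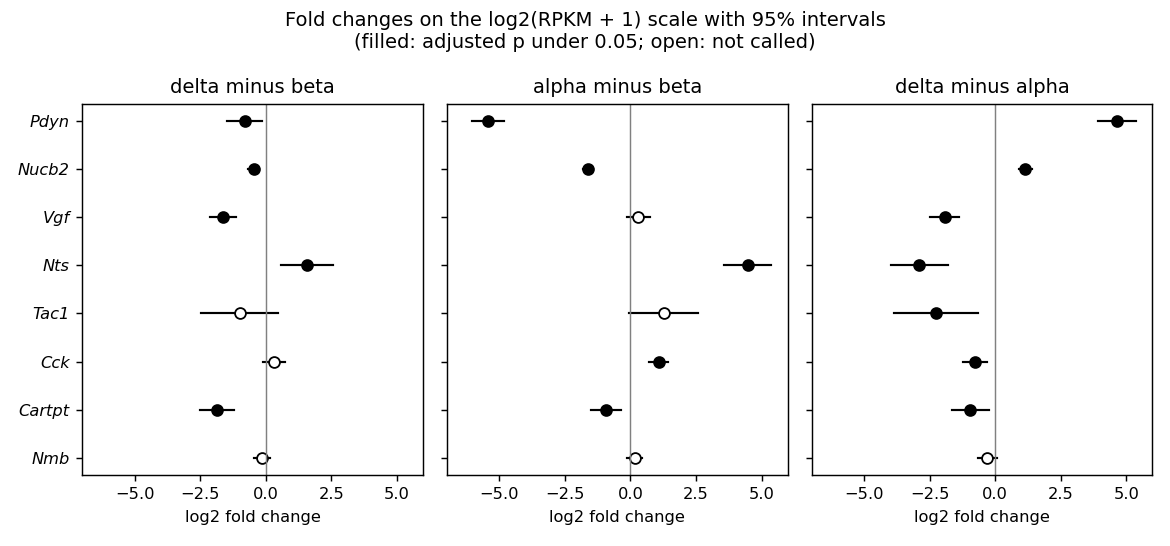
Log2 fold changes of the 8 tested genes on the log2(RPKM + 1) scale with 95% intervals, for delta minus beta, alpha minus beta and delta minus alpha; filled points have an adjusted p under 0.05 and open points do not. Pdyn at -5.43 and Nts at 4.47 lie farthest from 0 in alpha minus beta, and the intervals of Nmb span 0 in all 3 panels.

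Pdyn (chromosome 2, 129686565 to 129699844, minus strand, GRCm38) encodes the dynorphin precursor, and its transcript was abundant in delta and beta cells and scarce in alpha cells. Its level was 75.1 and 113.9 RPKM in delta libraries, 4.59, 1.63 and 2.59 RPKM in alpha libraries, and 207.8, 164.1, 141.9, 177.7 and 128.4 RPKM in beta libraries. No alpha library came near either other type, and the delta libraries lay below all beta libraries. The alpha minus beta log2 fold change was -5.43 (SE 0.26, adjusted p = 3.94e-07), and the delta level exceeded the alpha level by 4.64 (SE 0.32, adjusted p = 6.43e-06). In delta against beta cells the log2 fold change was -0.80 (SE 0.29, 95% interval -1.46 to -0.13, adjusted p = 0.0474), a value at the edge of the threshold. It was not called under 12 of 21 other settings, with adjusted p-values of 0.00758 to 0.418. Without delta replicate 1 it was -0.45 (adjusted p = 0.418), and leaving out delta replicate 2, alpha replicate 3 or beta replicate 1, 2, 3 or 4 gave adjusted p-values of 0.0538, 0.0672, 0.095, 0.0722, 0.0546 and 0.081.

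The small amount of Pdyn in alpha libraries can be set beside hormone transcripts of the other sorts. Pdyn in alpha replicates 1, 2 and 3 was 2.80%, 0.993% and 1.58% of the beta mean. Ins2, an insulin gene, was 0.821%, 0.789% and 0.648% of its beta mean in the same libraries, and Iapp, which encodes amylin, was 4.03%, 4.69% and 3.78%. Against the delta mean, Pdyn in the alpha libraries was 4.86%, 1.72% and 2.74%, and Sst, the delta cell hormone, was 5.19%, 1.91% and 2.60%. Pdyn and Sst were both highest in alpha replicate 1 and lowest in alpha replicate 2. The part of other cells in the alpha level of Pdyn was not tested.

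**Figure D3:**
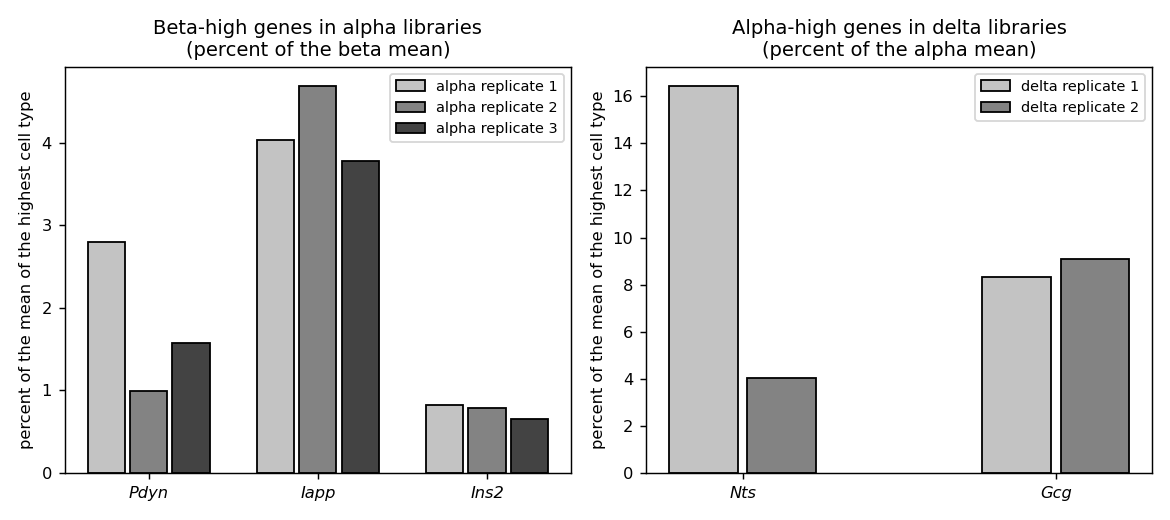
Level in single libraries as percent of the mean of the cell type where the gene is highest: Pdyn, Iapp and Ins2 in alpha libraries against the beta mean (left), and Nts and Gcg in delta libraries against the alpha mean (right). Each bar is 1 library; Pdyn in alpha libraries lies between 0.993% and 2.80%, and Nts in delta libraries at 16.4% and 4.04%.

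Penk (chromosome 4, 4133531 to 4138819, minus strand), the enkephalin precursor gene, was close to absent. It had 0.140 and 0.0763 RPKM in delta libraries, 0.0424, 0.336 and 0.162 RPKM in alpha libraries, and 0.324, 0.0870, 0.359, 0.244 and 0.106 RPKM in beta libraries. These values stand for 1 to 12 reads a library, and all 3 cell types overlap. Penk also overlaps A830012C17Rik on the other strand, and the library kit does not mark strand, so reads from the shared stretch cannot be told apart. How such reads were counted is not given, so the level of Penk may be off in either direction. Fitted without a filter on low values, its log2 fold changes were -0.15, -0.09 and -0.06 for delta minus beta, alpha minus beta and delta minus alpha (adjusted p = 0.265, 0.451 and 0.751).

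Nts (chromosome 10, 102481756 to 102490486, minus strand) was highest in alpha cells. Its level was 6.12 and 1.51 RPKM in delta libraries, 17.5, 64.5 and 29.8 RPKM in alpha libraries, and 0.614, 0.139, 0.430, 0.292 and 0.476 RPKM in beta libraries. The 3 types did not overlap, in the order alpha, delta, beta. Alpha replicate 2 had 3.69 times the level of alpha replicate 1, a spread reached by 1.25% of the tested genes with an alpha mean of at least 1 RPKM and no library at 0. Nts was higher in alpha than in beta cells by 4.47 (SE 0.39, adjusted p = 1.71e-05) and lower in delta than in alpha cells by -2.90 (SE 0.48, adjusted p = 0.00141), both log2 fold changes. In delta against beta cells it was higher by 1.57 (SE 0.44, adjusted p = 0.0163). That call rested on delta replicate 1, without which the log2 fold change was 0.94 (adjusted p = 0.241).

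Nts in the delta libraries was 16.4% and 4.04% of its alpha mean, where Gcg, the alpha cell hormone, was 8.33% and 9.11%. Nts therefore varied more between the delta libraries than Gcg did, and delta replicate 1 lay above and delta replicate 2 below its Gcg share. The beta libraries had 4 to 19 reads of Nts each, or 0.373% to 1.65% of the alpha mean, where Gcg was 0.182% to 1.12%. The part of alpha cells in these levels was not tested. Markers of exocrine cells were read in the same libraries. The 10 acinar markers summed to 90.5, 3299 and 807.1 RPKM in alpha replicates 1, 2 and 3 and the 6 ductal markers to 838.4, 1938 and 1492 RPKM, the same order as Nts. Tac1, Vgf and Penk also had that order in alpha libraries, while Pdyn, Cartpt, Cck, Nmb and Nucb2 did not. In beta cells the 3 libraries with the highest Nts, replicates 1, 5 and 3, also had the highest acinar sums, at 10520, 4358 and 2068 RPKM, against 472 and 212.1 RPKM in replicates 2 and 4. Between replicates 2 and 4 the acinar order was opposite to that of Nts. The ductal sums were 677, 546.8, 711.7, 553.3 and 599.6 RPKM in beta replicates 1 to 5, highest in replicate 3 rather than in replicate 1. The delta libraries had acinar sums of 881.5 and 680.7 RPKM, the higher in replicate 1, which also had more Nts. The part of these cells in Nts was not tested.

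Cck (chromosome 9, 121489824 to 121495694, minus strand) was also highest in alpha cells, at a far lower level. It had 0.406 and 1.009 RPKM in delta libraries, 1.12, 2.08 and 2.28 RPKM in alpha libraries, and 0.402, 0.240, 0.264, 0.353 and 0.658 RPKM in beta libraries. Alpha libraries lay above all others, while delta and beta libraries overlapped. Counts behind these values were 7 and 16 reads in delta, 16 to 34 reads in alpha and 4 to 15 reads in beta libraries. Cck was higher in alpha than in beta cells by 1.08 (SE 0.16, adjusted p = 0.000456) and lower in delta than in alpha cells by -0.77 (SE 0.20, adjusted p = 0.0133). The difference between delta and alpha cells was not called without delta replicate 1 (adjusted p = 0.184) or without alpha replicate 3 (adjusted p = 0.061). Delta minus beta was 0.31 (95% interval -0.09 to 0.72, adjusted p = 0.168).

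Tac1 (chromosome 6, 7554879 to 7565834, plus strand) varied most of the 8 tested genes within alpha and within beta cells. Its level was 0.718 and 0.312 RPKM in delta libraries, 2.03, 8.59 and 7.76 RPKM in alpha libraries, and 0.479, 1.90, 0.381, 10.1 and 4.24 RPKM in beta libraries. Beta libraries spanned the whole range of the alpha libraries and overlapped the delta libraries. The highest beta library had 26.5 times the level of the lowest, from 243 against 7 reads, and 0.372% of the tested genes with a beta mean of at least 1 RPKM and no library at 0 had as wide a spread. Tac1 was lower in delta than in alpha cells by -2.26 (SE 0.71, adjusted p = 0.0325). Without delta replicate 2 this was -1.38 (adjusted p = 0.265), and it was not called without alpha replicate 2 (adjusted p = 0.0839), without alpha replicate 3 (adjusted p = 0.0705), without a sex term (adjusted p = 0.0719) or without the filter (adjusted p = 0.0578). Alpha minus beta was 1.27 (95% interval -0.04 to 2.58, adjusted p = 0.091). It was called under 3 of 21 other settings, among them without beta replicate 4 (1.56, adjusted p = 0.0248). Delta minus beta was -0.99 (95% interval -2.45 to 0.47, adjusted p = 0.225).

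Tac1, Nts and Cck are also made by enteroendocrine cells and neurons, and markers of those cells were read in the same libraries. The 4 enteroendocrine and chromaffin markers Sct, Gip, Dbh and Pnmt summed to 0.425 and 0.786 RPKM in delta, 1.07 to 1.90 in alpha and 0 to 0.210 in beta libraries, and 3 of the 4 were at 0 in every alpha library. The 11 Schwann cell and neuron markers summed to 160 to 172 RPKM in delta, 126 to 148 in alpha and 108 to 180 in beta libraries, and Snap25, an exocytosis gene of endocrine cells too, had the highest level among them in each library. Among beta libraries that sum was 158.5 RPKM in replicate 4 and 180 RPKM in replicate 5, which had the highest Tac1, and 108 to 142 RPKM in the other 3. Snap25 alone gave 100.6 and 105.8 RPKM in replicates 4 and 5, and 47.2, 61.3 and 80.0 RPKM in replicates 1, 2 and 3. Tubb3, the next highest marker in beta libraries, did not follow that order, at 34.6, 41.9, 25.8, 33.4 and 35.9 RPKM in replicates 1 to 5. The glial genes Sox10 and Gfap stayed at or below 0.0211 RPKM in all 10 libraries. The part of such cells in Tac1 was not tested.

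Cartpt (chromosome 13, 99898489 to 99901091, minus strand) ran from beta cells down to delta cells. It had 0.905 and 1.78 RPKM in delta libraries, 3.56, 3.05 and 3.80 RPKM in alpha libraries, and 9.41, 4.35, 8.37, 10.4 and 6.08 RPKM in beta libraries. The 3 types did not overlap, although beta replicate 2 came close to the alpha libraries. Cartpt was lower in delta than in beta cells by -1.87 (SE 0.29, adjusted p = 0.000729) and lower in alpha than in beta cells by -0.93 (SE 0.26, adjusted p = 0.014). The second was not called under 2 of 21 other settings, among them without alpha replicate 1 and beta replicate 4 together (-0.82, adjusted p = 0.0561). Delta minus alpha was -0.95 (SE 0.32, adjusted p = 0.0413), a call lost under 8 of 21 other settings. Without delta replicate 1 the value was -0.55. The settings that lost the call included those without alpha replicate 1, 2 or 3 (adjusted p = 0.0866, 0.0598 and 0.15), without beta replicate 3 (adjusted p = 0.0538) and with all genes fitted (adjusted p = 0.0695). The 9 immune markers summed to 76.2 to 89.4 RPKM in delta, 24.4 to 44.5 in alpha and 115 to 221 RPKM in beta libraries. Of that sum C1qa alone gave 57.7 and 73.5 RPKM in delta, 11.1 to 17.7 in alpha and 21.1 to 40.2 RPKM in beta libraries. The other 8 markers summed to 18.5 and 15.9 RPKM in delta, 10.5 to 30.6 in alpha and 94.0 to 180.5 RPKM in beta libraries. The part of immune cells in Cartpt was not tested.

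Nmb (chromosome 7, 80902227 to 80905076, minus strand) was low in all 3 types. It averaged 1.67 ± 0.164 RPKM in delta (SD, n = 2), 2.29 ± 0.429 in alpha (SD, n = 3) and 1.95 ± 0.284 RPKM in beta libraries (SD, n = 5). Delta and alpha libraries both overlapped the beta range. Differences were -0.14 for delta minus beta (95% interval -0.46 to 0.18, adjusted p = 0.43), 0.16 for alpha minus beta (-0.13 to 0.44, adjusted p = 0.317) and -0.30 for delta minus alpha (-0.65 to 0.06, adjusted p = 0.165). Nmb overlaps Sec11a, which averaged 81.2 RPKM in delta, 70.0 in alpha and 82.2 RPKM in beta libraries, on the same strand, so a share of its reads may have been assigned to either gene. With quantile normalization delta minus beta became -0.58 (adjusted p = 0.029).

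Vgf (chromosome 5, 137026392 to 137033351, plus strand), the granin-like precursor, was abundant in all 3 types and lowest in delta cells. It had 46.7 and 52.8 RPKM in delta libraries, 157.1, 230.3 and 183.2 RPKM in alpha libraries, and 167.2, 172.9, 114.9, 215.6 and 133.9 RPKM in beta libraries. Both delta libraries lay below all others, and alpha and beta libraries overlapped. The delta mean was 26.2% of the alpha mean and 30.9% of the beta mean. Vgf was lower in delta than in beta cells by -1.63 (SE 0.22, adjusted p = 0.000346) and lower in delta than in alpha cells by -1.93 (SE 0.24, adjusted p = 0.000277). Alpha minus beta was 0.30 (95% interval -0.15 to 0.75, adjusted p = 0.224), and ran from 0.13 to 0.72 over 21 other settings. It was called under 2 of them, among them quantile normalization (0.65, adjusted p = 0.0124).

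Nucb2 (chromosome 7, 116504369 to 116540584, plus strand), the nesfatin-1 precursor gene, had the narrowest spread within each cell type of the 8 tested genes. It had 101.6 and 104.3 RPKM in delta libraries, 43.2, 43.8 and 49.0 RPKM in alpha libraries, and 133.3, 129.0, 146.3, 156.8 and 147.7 RPKM in beta libraries. The 3 types did not overlap, in the order beta, delta, alpha. Nucb2 was lower in alpha than in beta cells by -1.61 (SE 0.08, adjusted p = 6.15e-07), with an alpha mean at 31.8% of the beta mean, and higher in delta than in alpha cells by 1.16 (SE 0.10, adjusted p = 3.12e-05). Delta minus beta was -0.46 (SE 0.09, adjusted p = 0.00364), and its adjusted p was 0.0506 without delta replicate 2. The order beta, delta, alpha was also that of Pdyn.

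Delta and beta libraries did not overlap in 5 of the 8 tested genes, alpha and beta libraries in 5 and delta and alpha libraries in 8, where over all tested genes 62.8%, 50% and 71% did not overlap. Beta cells had the highest means of Pdyn, Nucb2 and Cartpt, alpha cells had the highest means of Nts, Vgf, Cck, Tac1 and Nmb, and delta cells had the highest mean of none of the 8 tested genes. For Vgf, Tac1 and Nmb the alpha and beta libraries overlapped, so their order at the top is not beyond the spread.

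Receptors for these peptides were few in the same cells. Of 19 listed receptors and binding proteins, 18 had values, and Tacr2 had none and was not analysed here. Of these 18, 13 stayed below the filter, 11 of them at or below 0.5 RPKM in every library. Oprk1, the dynorphin receptor, was at 0 in 9 of 10 libraries and at 0.0105 RPKM in the other. The enkephalin receptors Oprd1 and Oprm1 reached at most 0.0298 and 0.0489 RPKM. The neurotensin receptors Ntsr1 and Ntsr2 were at 0 in 8 and 6 libraries and reached at most 0.0144 and 0.0835 RPKM. A library at 0 reads allows up to 3 reads, so a value of 0 is not shown to be absence.

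Of the remaining receptors below the filter, the cholecystokinin receptors Cckar and Cckbr reached at most 0.499 and 0.0302 RPKM, the first of them in a beta library. The bombesin family receptors Nmbr, Grpr and Brs3 reached at most 0.464, 0.168 and 0.0865 RPKM. Tacr1, the substance P receptor, had 0.217 and 0.118 RPKM in the delta libraries and at most 0.0236 RPKM in alpha and 0.0149 RPKM in beta libraries. Gpr160, proposed as a receptor of the Cartpt peptide, reached 0.592 RPKM, and C3ar1, which binds TLQP-21 in rodents, reached 1.06 RPKM in 1 beta library and 0 RPKM in both delta libraries. C3ar1 is also a macrophage gene, and the immune marker sums of beta libraries were the highest of the 3 types; the part of immune cells in C3ar1 was not tested.

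The 5 others were tested. Delta cells had 2 higher and 1 lower than beta cells, alpha cells had 1 higher and 3 lower than beta cells, and delta cells had 3 higher and 1 lower than alpha cells, with median log2 fold changes of 0.26, -0.80 and 0.44. Calls in either direction over all tested genes were 50.7%, 54.0% and 38.0% in these contrasts. Tacr3, the neurokinin B receptor, which binds the Tac1 peptides less tightly, averaged 2.87 ± 0.177 RPKM in delta, 0.0682 ± 0.0335 in alpha and 0.947 ± 0.451 RPKM in beta libraries (SD, n = 2, 3 and 5), and was higher in delta than in alpha cells by 1.83 (SE 0.22, adjusted p = 0.000186) and than in beta cells by 1.04 (SE 0.20, adjusted p = 0.00244). Oprl1, the nociceptin receptor of the opioid family, averaged 1.09 RPKM in delta, 2.75 in alpha and 0.0411 RPKM in beta libraries, and was higher in alpha than in beta cells by 1.86 (adjusted p = 2.38e-07). Sorl1, a sorting receptor that can bind neurotensin, averaged 27.3 RPKM in delta, 2.87 in alpha and 23.7 RPKM in beta libraries. It was lower in alpha than in beta cells by -2.56 (adjusted p = 2.11e-06), opposite to Nts. Sort1, or sortilin, which also binds neurotensin, averaged 45.5, 32.6 and 39.3 RPKM in the same order and was higher in delta than in alpha cells by 0.44 (adjusted p = 0.0233), a call lost after median-ratio scaling (0.14, adjusted p = 0.537). C1qbp, a mitochondrial protein reported to bind a Vgf peptide, averaged 30.1, 27.6 and 50.3 RPKM and was lower than in beta cells by -0.72 in delta and by -0.84 in alpha cells (adjusted p = 0.000712 and 0.000107).

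**Figure D4:**
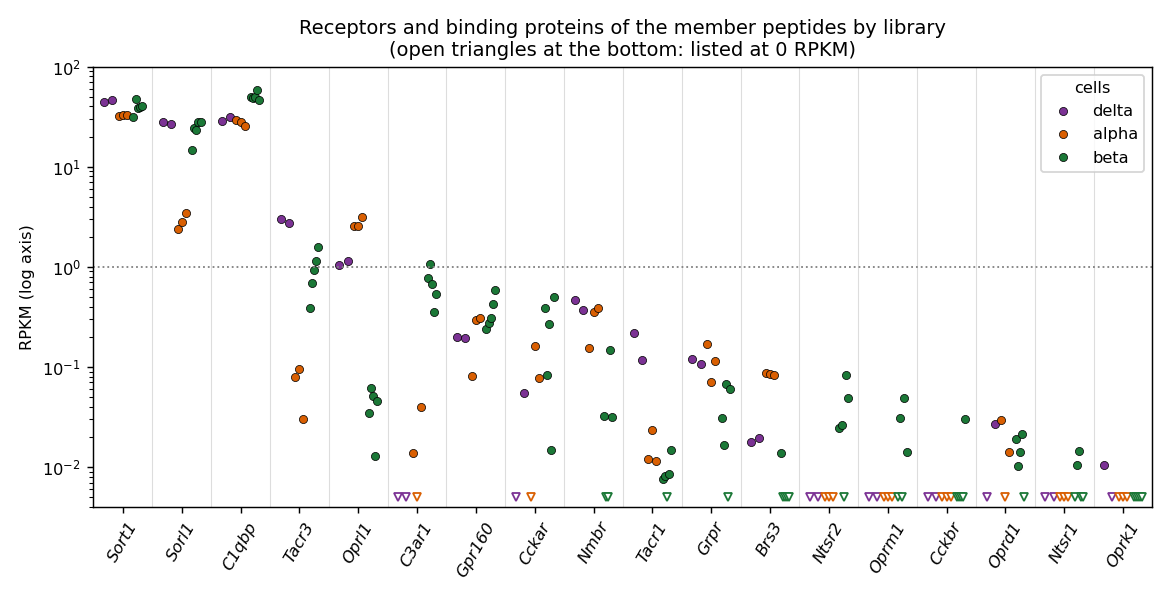
RPKM on a log axis of 18 receptors and binding proteins of these peptides in each delta, alpha and beta library; open triangles at the bottom are values of 0, and the dotted line marks 1 RPKM. Sort1, Sorl1, C1qbp, Tacr3 and Oprl1 were the 5 that passed the filter, and Oprk1 was at 0 in 9 of 10 libraries.

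The enzymes and granins that process and store such precursors were counted in the same way. Of 16 tested genes, delta cells had 8 higher and 5 lower than beta cells, alpha cells had 3 higher and 8 lower than beta cells, and delta cells had 8 higher and 4 lower than alpha cells, with medians of 0.44, -0.42 and 0.46. The shares of all tested genes called higher and lower were 37.4% and 13.3%, 23.7% and 30.3%, and 32.1% and 5.89% in these contrasts. After median-ratio scaling the count of these 16 genes for delta against beta cells was 2 higher and 5 lower. Pcsk1, the prohormone convertase that starts the cleavage of many precursors, followed the same order as Pdyn and averaged 28.8 ± 1.95 RPKM in delta, 3.16 ± 0.207 in alpha and 250 ± 52.4 RPKM in beta libraries (SD, n = 2, 3 and 5). Its log2 fold change was -3.02 in delta and -5.82 in alpha against beta cells (adjusted p = 6.26e-07 and 1.49e-08). Pcsk1n, which encodes an inhibitor of that enzyme, was higher in alpha than in beta cells by 1.46 (adjusted p = 0.000148). The granin genes Scg2 and Chgb were lower in alpha than in beta cells by -1.67 and -1.42 (adjusted p = 3.73e-06 and 1.83e-05), and Chga was lower in delta than in beta cells by -1.18 (adjusted p = 0.00145). Chgb averaged 2397 RPKM in delta, 417.4 in alpha and 1147 RPKM in beta libraries, Scg2 3137, 737 and 2387, and Scg3 560, 402.9 and 963.8. Chgb and Scg2 were called higher in delta than in beta cells, by 1.08 and 0.41. The Chgb call was lost with quantile normalization (0.51, adjusted p = 0.0903) and the Scg2 call after median-ratio scaling (0.11, adjusted p = 0.599). Granin genes thus went in both directions between delta and beta cells. Ctsh, a cathepsin, was higher in delta than in alpha cells by 3.43 and than in beta cells by 2.38 (adjusted p = 9.03e-07 and 2.3e-06). Qpct, which forms the pyroglutamate end that neurotensin carries, averaged 2.02, 4.997 and 6.10 RPKM in delta, alpha and beta libraries and was lower in delta than in beta cells by -1.12 (adjusted p = 0.0121).

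Factors known to act at CRE and AP-1 elements were read for comparison with the promoter letters above. Of 16 tested, delta minus beta was positive for 10 and negative for 1 that passed the test. In alpha against beta cells 4 were higher and 2 lower, and in delta against alpha cells 7 were higher and 1 lower, with medians of 0.64, 0.13 and 0.45. All tested genes had 37.4% higher and 13.3% lower, 23.7% and 30.3%, and 32.1% and 5.89% in these 3 contrasts. After median-ratio scaling the counts of the 16 factors were 7 and 2, 5 and 2, and 3 and 1. Kcnip3, or DREAM, a calcium-binding repressor known from human cells to act on the prodynorphin gene, averaged 2.25 ± 0.213 RPKM in delta, 14.2 ± 1.13 in alpha and 0.260 ± 0.165 RPKM in beta libraries (SD, n = 2, 3 and 5), the opposite order to Pdyn. It was higher in alpha than in beta cells by 3.57 (adjusted p = 5.1e-08) and lower in delta than in alpha cells by -2.20 (adjusted p = 5.6e-06). The immediate early genes Egr1, Jun, Fos and Fosb had higher levels in delta than in beta cells, by 3.19, 2.42, 2.41 and 1.85 (adjusted p = 0.00123, 3.51e-06, 0.00142 and 0.0029). Atf4, a stress-responsive CRE-binding factor, was lower in alpha than in beta cells by -1.67 (adjusted p = 4.59e-06).

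Among 21 tested genes of other neuropeptides and islet peptides, delta cells had 10 higher and 5 lower than beta cells, alpha cells had 12 higher and 6 lower than beta cells, and delta cells had 6 higher and 5 lower than alpha cells, with medians of 0.45, 0.89 and 0.29. For all tested genes the shares higher and lower were 37.4% and 13.3%, 23.7% and 30.3%, and 32.1% and 5.89%. After median-ratio scaling the counts of the 21 genes were 7 and 6, 12 and 5, and 4 and 6, so that delta minus alpha turned to more lower than higher genes, and with quantile normalization delta minus alpha had 2 higher and 6 lower, with a median of -0.04. The largest differences were those of the main hormones and of Ucn3, which encodes urocortin 3 and was lower than in beta cells by -6.08 in delta and by -6.37 in alpha cells (adjusted p = 2.28e-07 and 7.77e-08). Edn3, which encodes endothelin 3, averaged 8.69 RPKM in delta, 69.1 in alpha and 0.559 RPKM in beta libraries and was lower in delta than in alpha cells by -2.87 (adjusted p = 9.28e-06). Its order, alpha, delta, beta, was that of Nts.

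Genes with the most similar profiles were ranked by the root mean square difference between centred log2(RPKM + 1) values over the 10 libraries, without a test. Nearest to Pdyn were Hadh (0.43) and Enho (0.44), and nearest to Nts were Higd1a (0.48) and Sstr2 (0.55). Hadh, a mitochondrial enzyme of fatty acid oxidation, averaged 182.9 RPKM in delta, 10.8 in alpha and 303.7 RPKM in beta libraries, and Sstr2, a somatostatin receptor, averaged 2.46, 18.0 and 0.151 RPKM. Nearest to Cartpt were Srgn (0.30) and Nrtn (0.33), to Cck Cbln2 (0.16) and Vill (0.17), to Vgf Vipr1 (0.25) and Ankrd33b (0.25), and to Nucb2 Arl8b (0.12) and Slc22a23 (0.13). Nearest to Tac1 were Nr4a2 (0.67), an immediate early gene, and Mir6946 (0.75). A gene with a narrow range over libraries has small differences to many others, so these values are not comparable between the neuropeptide genes.

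None of the 8 genes was called for sex across the 3 cell types, where 0.0472% of all tested genes were (6 of 12700, limma, with 634 at an unadjusted p under 0.05). Tac1 had the largest value, with a female minus male log2 fold change of 1.10 (SE 0.50, 95% interval -0.03 to 2.24, unadjusted p = 0.0548, adjusted p = 0.77). Its female beta libraries had 1.90, 10.1 and 4.24 RPKM and its male beta libraries 0.479 and 0.381 RPKM, with no overlap. In alpha cells the female library had 7.76 RPKM and the male libraries 2.03 and 8.59 RPKM, and in delta cells the female library had 0.312 RPKM and the male library 0.718 RPKM. The alpha minus beta differences were also tested for dependence on sex, where 0% of 12273 genes were called (129 at an unadjusted p under 0.05), and none of the 8 genes was called either. With 1 female alpha library this test is weak.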

How the data were processed

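RNA of sorted delta, alpha and beta cells was sequenced in 10 libraries. The authors deposited 1 table of RPKM values for 19213 gene entries. GRCm38.p3 is the build in the submitters' processing notes, which list edgeR 3.12.0, featureCounts and STAR 2.4 as tools, and per the labels' protocols libraries were made with a TruSeq RNA kit, which does not mark strand. Which annotation was counted, and how multi-gene reads were handled, was not given in the sources used here. Library totals and reads were recovered from the steps between low RPKM values and serve only to give depth.

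The test was limma 3.58.1 (R 4.3.3) on log2(RPKM + 1). A single fit over the 12700 genes that reached 1 RPKM in 2 or more libraries had terms for sex and cell type, a mean-variance trend, 6 residual degrees of freedom and Benjamini-Hochberg adjustment over all genes. The procedure was tested on simulated data in which only genes above the lowest levels were changed, with the same folds in delta and alpha cells. That run does not cover calls on low genes or shifts in library make-up between types. Fold changes on this scale understate those of low genes. The alpha and beta libraries alone were used to test cell type by sex. Means are given with SD.

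The neuropeptide genes and the gene lists were chosen with earlier results of these data known. From each list, up to 4 called genes with the largest absolute fold change per contrast are named, with every receptor, and for each called neuropeptide gene the 2 genes with the most similar profile. Iapp, Sst, Gcg and Ins2 shares, single nerve markers, Sec11a and the levels of Chgb, Scg2 and Scg3 were added after values were seen, as were list counts under other scalings. Coordinates are from GENCODE M21 (GRCm38) and promoters from RefSeq (GRCm38.p6), both matched by symbol. Effects of 21 other settings were computed, 3 of them (hormone reads left out of the totals, and the 8 libraries with consecutive title numbers, fitted with and without pairs) chosen after seeing the data.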

Additional observations from a re-analysis of the deposited data

How the results depend on the processing

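Over 503 recomputed cell type values of the 8 tested genes under 21 settings, 465 kept direction and call, 31 were no longer called, 6 became called and 1 changed sign, which was Nmb in alpha minus beta at -0.0185 with quantile normalization. Pdyn, Nts, Nucb2 and Cck in alpha minus beta, Pdyn, Nts, Nucb2 and Vgf in delta minus alpha, and Cartpt and Vgf in delta minus beta were called under each setting run. The number of called genes ran from 3 to 5 for delta minus beta (3 without delta replicate 1 and 3 without delta replicate 2), from 5 to 6 for alpha minus beta and from 4 to 7 for delta minus alpha (4 without alpha replicate 3) when 1 library at a time was left out. None of 264 recomputed values of the sex terms was called. Signs changed for Cartpt in female minus male with a pseudocount of 0.1 (0.024), for Pdyn and Nmb with median-ratio scaling (-0.0253 and -0.0264) and without hormone reads in the totals (-0.0441 and -0.0389), for Nmb with quantile normalization (-0.0431) and for Pdyn in the interaction with quantile normalization (-0.0922). With 1 library left out, female minus male ran from -0.13 to 0.17 for Pdyn, -0.0567 to 0.0916 for Nmb and -0.19 to 0.11 for Cartpt, and the interaction from -0.49 to 0.59 for Pdyn and -0.86 to 0.97 for Nts. The causes were not tested. The interaction could not be fitted without alpha replicate 3, the only female alpha library. Consecutive title numbers of the same sex join delta replicates 1 and 2 to beta replicates 1 and 2, and alpha replicates 2 and 3 to beta replicates 3 and 5. The labels do not say that these numbers mark shared islets, and the deviations of the 4 pairs from their cell type means correlated at 0.001, 0.372, 0.269 and 0.464 over 12700 genes, so the numbers were not taken as pairs. The best-correlated beta library was the partner for delta replicate 2 and alpha replicates 2 and 3, not for delta replicate 1. From the beta side the partner was the best match only for beta replicate 5. The 2 delta libraries deviate from their mean by opposite amounts, so their values are not separate checks. With these 4 pairs as a replicate block, 5, 6 and 6 of the 8 genes were called in delta minus beta, alpha minus beta and delta minus alpha, and 5, 5 and 6 in the same 8 libraries with no block. Depth limits Penk and Cck, at 1 to 34 reads a library, and delta cells have 2 libraries. Reads were also few for Tac1 (15 and 6) and Cartpt (16 and 29) in the delta libraries. Nmb had 20 to 43 reads a library and Nts 4 to 19 in beta libraries.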
